A study of Homo sapiens with 6 samples.

Results

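The Argonaute, TNRC6 and microRNA processing genes are 10 genes of 21357 gene symbols in the array's annotation: AGO1, AGO2, AGO3 and AGO4, TNRC6A, TNRC6B and TNRC6C, and DICER1, DROSHA and DGCR8. They were taken by name, and every probe set annotated to one of them is described, 47 of the 54613 probe sets tested. Total RNA came from LNCaP, an established line of androgen-responsive human prostate cancer cells. One group had received siRNA, short double-stranded RNA that silences a matching transcript, against the non-coding RNA PCARNEQ (siPCARNEQ, 3 arrays), and the other a control siRNA to EGFP, a jellyfish fluorescent protein that these cells do not make (siEGFP, 3 arrays). Both groups therefore carried a siRNA, which is itself loaded into Argonaute, and no array from cells without siRNA was analysed here. The labels name neither the siRNA sequences, the dose, the time nor separate cultures, so each p-value reflects array-to-array spread alone, part or all of which may be technical.

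A microRNA is cut from its primary transcript in the nucleus by DROSHA, a ribonuclease III enzyme, with its RNA-binding partner DGCR8. The hairpin is exported by exportin with the GTPase RAN and is cut again by DICER1 in the cytoplasm. An Argonaute protein (AGO) keeps 1 strand as a guide, and bases 2 to 8 of that strand, the seed, pair with target messenger RNAs. TNRC6 proteins, the GW182 family, bind Argonaute and recruit the deadenylases that shorten the target's poly(A) tail, after which the cap is removed and the RNA is degraded.

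DICER1, TNRC6A and TNRC6B were lower in siPCARNEQ cells on most of their probe sets, and AGO4 was higher. DICER1 fell by 1.06 to 1.27 on the log2 scale on its 3 brightest probe sets, which is 2.08-fold to 2.41-fold lower. On its brightest probe set TNRC6A fell by 0.92 and AGO4 rose by 1.20, or 2.29-fold, while the other 3 AGO4 probe sets changed by 0.28 to 0.56. TNRC6B changed by -0.47 on its brightest probe set, which did not pass, and fell by 0.60 to 0.97 on the other 6. DROSHA was lower by 0.28 on its only probe set, which did not pass (limma adjusted p = 0.0521). No probe set of AGO3, TNRC6C or DGCR8 passed the test either. Of the 47 probe sets, 3 rose, 15 fell and 29 did not pass, with rose and fell used here for a limma adjusted p below 0.05 over all probe sets. That is 6.38% up and 31.9% down, against a background of 9.92% of all probe sets that rose and 8.61% that fell. The groups did not overlap for 5 probe sets that were higher and 21 that were lower, against 18.6% and 19.1% of all probe sets. The median log2 change was -0.14 over the 47 probe sets and -0.01 over all probe sets.

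Depth has no counterpart on an array, and the number of arrays limits the precision. The median log2 intensity was 7.03 on every array, and 7 of the 47 probe sets lay below it in both groups. Array 1 stood apart in both groups: the SD of the log2 difference was 0.371 to 0.373 between siPCARNEQ array 1 and siPCARNEQ arrays 2 and 3, and 0.136 between those, against 0.232 to 0.239 and 0.129 in siEGFP cells. The ACTB control probe sets, read near the 3' and the 5' end of the RNA, differed by 1.84, 0.69 and 0.68 (log2) on siPCARNEQ arrays 1 to 3 and by 0.78, 0.67 and 0.63 on siEGFP arrays 1 to 3, so siPCARNEQ array 1 was the high one (2-sided exact permutation p = 0.5 between groups, where 0.1 is the smallest that 3 against 3 arrays allow). All 18 probe sets that rose or fell had the same sign in array 1 as in arrays 2 and 3, as had 33 of the 47. The 18 were called from these same arrays, so their agreement is largely fixed by that choice and is no separate check. Of 12 luminal prostate markers, 10 were measured. Their summed intensity was 81286 to 87197 on siPCARNEQ arrays, against 54906 to 56332 on siEGFP arrays, and 7 rose and 0 fell. Of 15 markers of basal, neuroendocrine, stromal, immune and endothelial cells, 13 were measured, 5 of them below the array median in both groups, and their sum was 3047 to 3641 on siPCARNEQ arrays and 2389 to 2429 on siEGFP arrays. KRT14 and COL1A1 rose, by 1.02 and 1.11 (log2), ACTA2 fell by 0.46, and the other 10 did not pass. The calls of both marker lists are over genes, with 1 probe set per gene, where 15.2% of all genes rose and 12.3% fell. The part of array 1, of RNA quality and of these markers in the results was not tested. In bulk RNA, fewer cells of a type and less RNA per cell cannot be told apart. PCARNEQ itself was not analysed here, so its knockdown was not checked.

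The DNA just before the annotated start of the genes that changed most is shown because DICER1, TNRC6A and TNRC6B fell while AGO4 rose. Each window is 250 bases from RefSeq on GRCh38.p14, read 5′ to 3′ on the gene's strand, with the CCAAT box, spelled CCAAT or ATTGG on the other strand, in capitals. The windows are chr14:95157530-95157779 on the minus strand for DICER1, the first of 5 windows listed for it, and on the plus strand chr16:24729401-24729650 for TNRC6A, chr22:40044584-40044833 for TNRC6B and chr1:35807766-35808015 for AGO4.
DICER1: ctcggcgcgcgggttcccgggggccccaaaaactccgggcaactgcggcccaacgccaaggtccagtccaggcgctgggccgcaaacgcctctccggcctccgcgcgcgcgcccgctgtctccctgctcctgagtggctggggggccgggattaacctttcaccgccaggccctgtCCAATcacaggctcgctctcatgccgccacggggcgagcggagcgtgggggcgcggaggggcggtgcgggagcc
TNRC6A: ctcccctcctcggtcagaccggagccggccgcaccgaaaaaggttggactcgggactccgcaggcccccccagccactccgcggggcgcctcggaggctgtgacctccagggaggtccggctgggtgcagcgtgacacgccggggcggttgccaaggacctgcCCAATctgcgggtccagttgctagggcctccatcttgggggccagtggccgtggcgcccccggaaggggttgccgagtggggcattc
TNRC6B: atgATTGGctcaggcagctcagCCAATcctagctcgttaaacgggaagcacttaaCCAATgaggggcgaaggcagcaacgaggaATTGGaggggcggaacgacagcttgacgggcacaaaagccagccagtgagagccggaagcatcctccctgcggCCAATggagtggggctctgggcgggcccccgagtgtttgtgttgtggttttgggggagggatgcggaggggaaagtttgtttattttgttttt
AGO4: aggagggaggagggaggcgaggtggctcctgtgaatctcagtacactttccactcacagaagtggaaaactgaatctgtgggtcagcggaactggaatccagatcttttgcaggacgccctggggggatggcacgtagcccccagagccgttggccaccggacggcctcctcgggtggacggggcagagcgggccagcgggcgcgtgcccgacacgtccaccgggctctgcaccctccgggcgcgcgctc
The box occurs 1 time before DICER1, 1 time before TNRC6A, 5 times before TNRC6B and 0 times before AGO4. In the windows of other members, which are not printed, it occurs 1 time before AGO1, 0 times before AGO3, 0 times before TNRC6C, 3 times before DROSHA and 4 times before DGCR8, on which no probe set passed. The TNRC6C window is the first of 4 listed for it, and AGO2 was left out of this search. Of 27305 RefSeq windows of this length, 33.0% hold at least 1 CCAAT box. The GC box (GGGCGG), the E-box (CACGTG) and E2F sites were also searched for on both strands. The GC box occurs 1 time before DICER1, TNRC6A and DROSHA, and 2 times before TNRC6B, AGO1, AGO3 and DGCR8. It occurs 0 times before AGO4 and TNRC6C, and 42.3% of all windows hold it. The E-box and E2F sites occur 0 times in the windows of these genes. These matches describe the letters and show neither binding nor a cause.

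The processing enzymes come first in the pathway, and DICER1 stood out among them. DICER1, which cuts the exported hairpin into the mature duplex, lies on chromosome 14 and has 6 probe sets, of which 4 fell. On its brightest, 213229_at, log2 intensity was 12.12, 11.78 and 11.70 on siPCARNEQ arrays 1 to 3, against 12.86, 12.98 and 12.93 on siEGFP arrays 1 to 3. Every siPCARNEQ array was below every siEGFP array, and the change was -1.06 (SE 0.12, limma adjusted p = 0.00151). It was -0.74 between the arrays numbered 1 and -1.22 between those numbered 2 and 3. On 212888_at, values were 10.41, 10.51 and 10.41 in siPCARNEQ cells, against 11.54, 11.63 and 11.68 in siEGFP cells, a change of -1.17 (SE 0.08, limma adjusted p = 0.000231). A suffix of _s_at, _x_at or _a_at marks a probe set that may match several transcripts. On one of these, 206061_s_at, values were 10.26, 10.08 and 10.05 in siPCARNEQ cells, against 11.35, 11.48 and 11.37 in siEGFP cells, a change of -1.27 (SE 0.09, limma adjusted p = 0.000263). The 3 brightest probe sets all separated the groups. The change on 206061_s_at was larger than on 213229_at by a log2 difference of -0.21, with no overlap of the per-array differences (exact permutation p = 0.1, the smallest possible).

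The remaining DICER1 probe sets were below the array median in both groups, where an array resolves change poorly. Of these, 216280_s_at fell by 0.58 (SE 0.07, limma adjusted p = 0.00182), with 5.58, 5.61 and 5.63 in siPCARNEQ cells and 6.24, 6.13 and 6.20 in siEGFP cells. The change was -0.22 on 216260_at (limma adjusted p = 0.197), where the groups did not overlap, and -0.16 on 216281_at (limma adjusted p = 0.507), where they did.

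**Figure D1:**
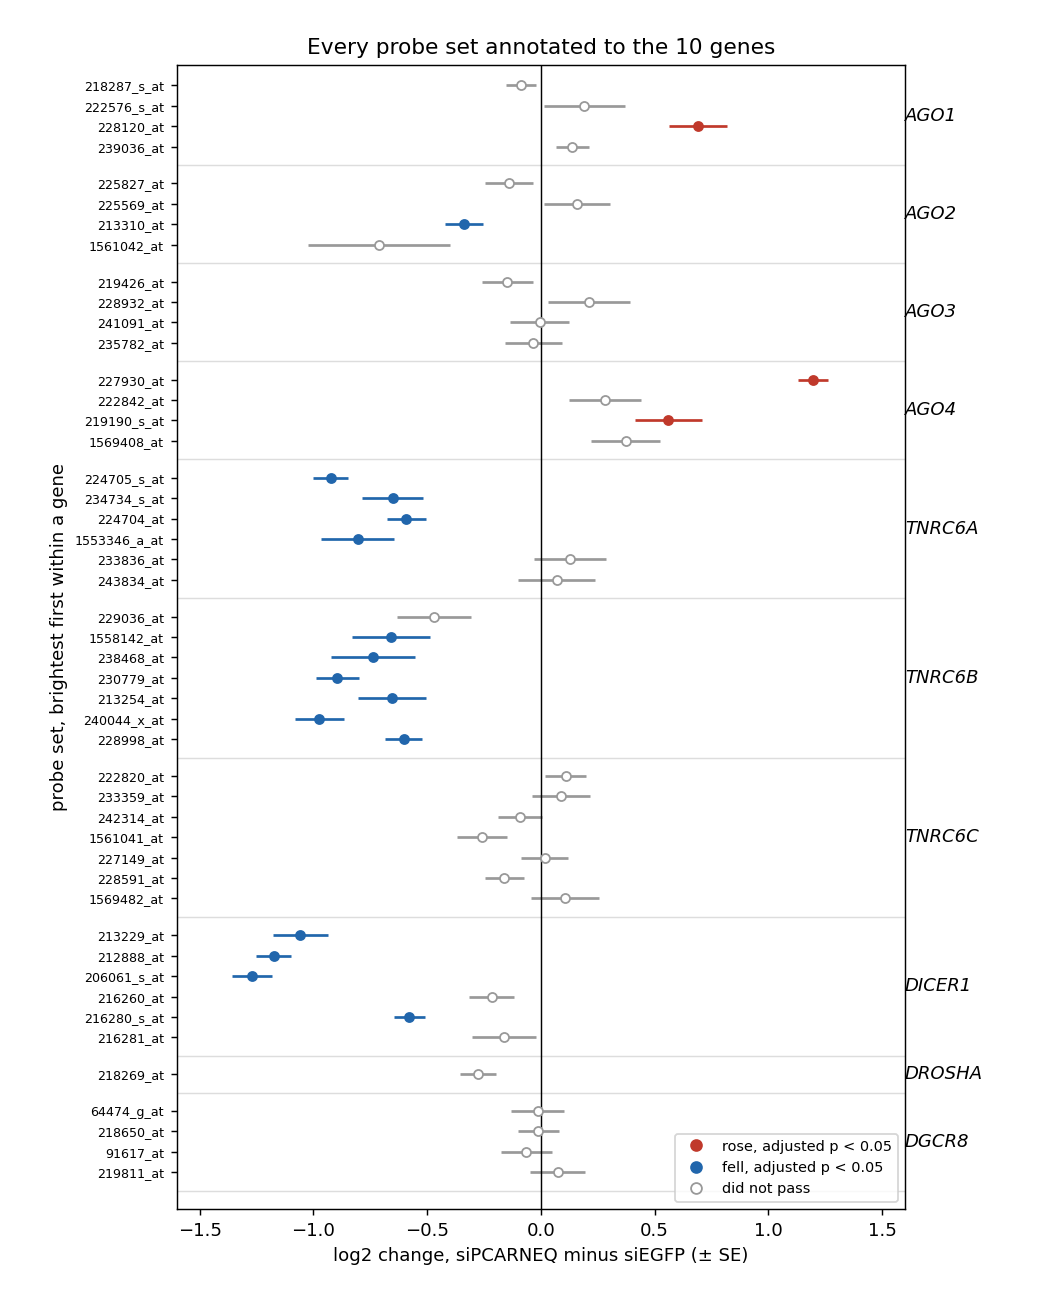
Log2 change, siPCARNEQ minus siEGFP, of each of the 47 probe sets, one row per probe set grouped by gene, with 3 arrays per group and bars of 1 SE. Of the 15 probe sets that fell, 14 belong to DICER1, TNRC6A and TNRC6B, from -0.58 to -1.27, and the highest value is 1.20 for AGO4.

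DROSHA, which makes the first cut, lies on chromosome 5 and has 1 probe set, 218269_at. Its log2 intensity was 10.97, 11.10 and 11.08 in siPCARNEQ cells, against 11.23, 11.37 and 11.38 in siEGFP cells. All siPCARNEQ arrays were lower, by 0.28 on average (SE 0.08). The limma adjusted p was 0.0521 over probe sets, and 0.0311 over genes, where each gene is its brightest probe set with a single gene annotated. With the replicate number as a block it was 0.0384 over probe sets, but 0.185 over probe sets and 0.0917 over genes when arrays 2 and 3 of each group were averaged before the block was fitted. The call over genes was lost without siPCARNEQ array 2 or 3 (limma adjusted p = 0.059 and 0.0756) or without siEGFP array 2 or 3 (0.118 each).

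DGCR8, the partner that holds the primary transcript for DROSHA, lies on chromosome 22 and has 4 probe sets. All of them are annotated to DGCR8 and to the microRNA gene MIR1306, which lies inside DGCR8, so an intensity cannot be given to one or the other from the annotation, although 2 of the 4 carry the accession of a DGCR8 transcript in RefSeq. On the brightest, 64474_g_at, log2 intensity was 10.46, 10.07 and 10.08 in siPCARNEQ cells, against 10.23, 10.23 and 10.19 in siEGFP cells. The groups overlapped on all 4, with changes of -0.06 to 0.07 (limma adjusted p = 0.744 to 0.954). A mature microRNA is far shorter than the transcripts these probe sets read. The microRNAs that RefSeq places in DGCR8 on GRCh38.p14 are shown with the seed in capitals, because MIR1306 shares these probe sets. MIR3618 also lies in DGCR8 but is not named in their annotation.
hsa-miR-3618: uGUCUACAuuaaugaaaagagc
hsa-miR-1306-5p: cCACCUCCccugcaaacgucca
hsa-miR-1306-3p: aCGUUGGCucugguggug
Their seeds differ from each other.

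Within each array, DICER1 moved away from both partners of the first cut. The log2 difference of DICER1 to DROSHA was 0.62 to 1.15 on siPCARNEQ arrays and 1.56 to 1.63 on siEGFP arrays, a shift of -0.78. That of DICER1 to DGCR8 was 1.62 to 1.71 on siPCARNEQ arrays and 2.63 to 2.75 on siEGFP arrays, a shift of -1.04. Both were separated (exact permutation p = 0.1, the smallest possible; 0.171 adjusted over the 12 pairs of members compared). For DROSHA against DGCR8 the shift was -0.26 and the groups overlapped (exact permutation p = 0.3). Such differences between probe sets have no meaning as levels, and only their shift between groups is read.

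Among the Argonautes, AGO4 rose. AGO4, an Argonaute that in mammals is not known for efficient slicing of targets, lies on chromosome 1 and has 4 probe sets, of which 2 rose. On the brightest, 227930_at, log2 intensity was 10.35, 10.33 and 10.27 in siPCARNEQ cells, against 9.13, 9.13 and 9.10 in siEGFP cells. The arrays of a group lay within 0.1 of each other, and the change was 1.20 (SE 0.07, limma adjusted p = 0.000171). On 219190_s_at, values were 7.49, 8.05 and 7.77 in siPCARNEQ cells, against 7.06, 7.28 and 7.28 in siEGFP cells, a change of 0.56 (SE 0.15, limma adjusted p = 0.0401). That call was lost without any 1 array other than siPCARNEQ array 1 (limma adjusted p = 0.0841 to 0.128). The other AGO4 probe sets were also higher on average, by 0.28 on 222842_at (limma adjusted p = 0.29, against 0.0431 with the replicate block and 0.167 with the block after averaging arrays 2 and 3), where the groups overlapped, and by 0.37 on 1569408_at (limma adjusted p = 0.15), where they did not but both were below the array median. The change on 227930_at was larger than on each of the other 3 AGO4 probe sets, by 0.63 to 0.91 (exact permutation p = 0.1 each).

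AGO1, on the same chromosome and likewise a weak slicer, gave probe sets that disagreed. On 228120_at, log2 intensity was 10.29, 9.93 and 9.97 in siPCARNEQ cells, against 9.55, 9.34 and 9.23 in siEGFP cells, a rise of 0.69 (SE 0.13, limma adjusted p = 0.0103; 0.0504 without siEGFP array 2). On the brightest, 218287_s_at, it was 10.29, 10.33 and 10.33 in siPCARNEQ cells, against 10.38, 10.44 and 10.40 in siEGFP cells, with all siPCARNEQ arrays lower by a mean of 0.09 (log2 change -0.09, SE 0.07, limma adjusted p = 0.438). The difference between these 2 probe sets moved by 0.78 (exact permutation p = 0.1). The changes were 0.19 on 222576_s_at (limma adjusted p = 0.54), with overlap, and 0.14 on 239036_at (limma adjusted p = 0.25), with all siPCARNEQ arrays higher. The positions these probe sets read in the AGO1 transcript were not used here.

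AGO2, the Argonaute that slices fully paired targets and carries out siRNA cleavage, lies on chromosome 8. Its only probe set with 1 gene, 225827_at, had a log2 intensity of 12.56, 12.26 and 12.23 in siPCARNEQ cells, against 12.48, 12.54 and 12.44 in siEGFP cells, a change of -0.14 (SE 0.11, limma adjusted p = 0.442). The groups overlapped, and siPCARNEQ array 1 was the highest of all 6. Without that array the change was -0.24 (limma adjusted p = 0.041). The other 3 AGO2 probe sets are annotated to AGO2 and CASC7, a symbol that RefSeq now lists as a synonym of AGO2. Of these, 213310_at fell by 0.34 (SE 0.09, limma adjusted p = 0.034), with 10.48, 10.62 and 10.62 in siPCARNEQ cells and 10.79, 10.96 and 10.98 in siEGFP cells. That call was lost without siPCARNEQ array 2 or 3 or siEGFP array 2 or 3 (limma adjusted p = 0.0744 to 0.132). The change was 0.16 on 225569_at (limma adjusted p = 0.523) and -0.71 on 1561042_at (limma adjusted p = 0.18, and 0.00535 with the replicate block), both with overlap.

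AGO3, the neighbour of AGO1, did not pass on any of its 4 probe sets, which changed by -0.15 to 0.21 with overlap on all (limma adjusted p = 0.444 to 0.984). On the brightest, 219426_at, log2 intensity was 10.08, 9.74 and 9.70 in siPCARNEQ cells, against 9.997, 10.01 and 9.95 in siEGFP cells. As for AGO2, siPCARNEQ array 1 was the highest, and without it the change was -0.27 (limma adjusted p = 0.0276), against -0.15 with all arrays. In RefSeq, AGO4, AGO1 and AGO3 follow each other on chromosome 1 in that order with 0 protein-coding genes between them. On the brightest probe sets, AGO4 moved apart from AGO1 by 1.28, from AGO2 by 1.33 and from AGO3 by 1.34 (exact permutation p = 0.1 and adjusted 0.171 each), while AGO1, AGO2 and AGO3 moved apart by 0.01 to 0.06 with overlap (exact permutation p = 0.8 each). The shift from AGO1 holds for that choice of probe sets, and other pairings were not compared. AGO1 rose by 0.69 on 228120_at, whereas the AGO4 probe sets other than the brightest changed by 0.28 to 0.56.

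**Figure D2:**
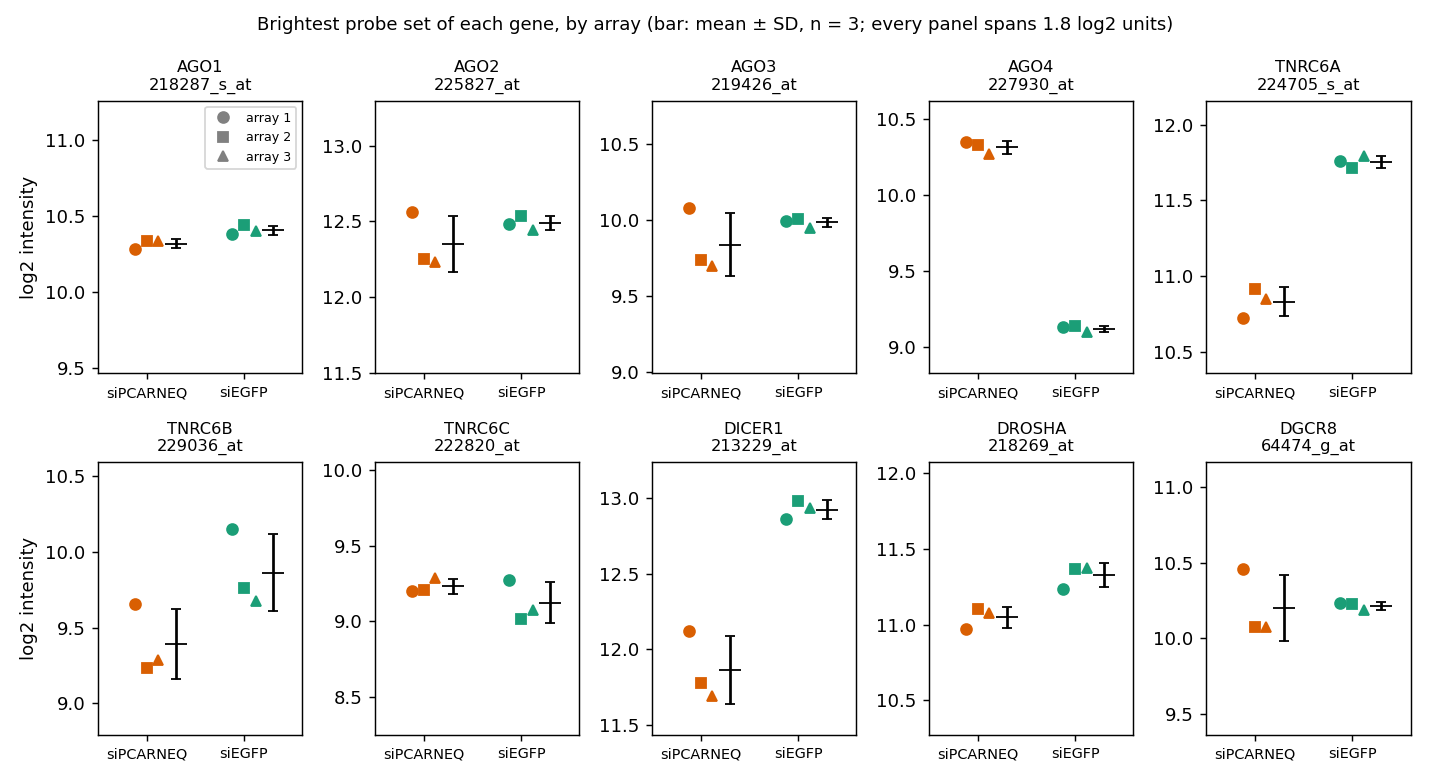
Log2 intensity of the brightest probe set of each gene on each array, siPCARNEQ left of siEGFP in each panel, with points for arrays 1 to 3 and bars for the mean ± SD (n = 3). AGO4 is higher on all 3 siPCARNEQ arrays, and AGO1, TNRC6A, TNRC6B, DICER1 and DROSHA are lower on all 3; levels are not compared between panels.

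TNRC6A and TNRC6B, which join Argonaute to the deadenylases, fell on most probe sets. TNRC6A lies on chromosome 16, and 4 of its 6 probe sets fell. On the brightest, 224705_s_at, log2 intensity was 10.73, 10.92 and 10.85 in siPCARNEQ cells, against 11.76, 11.71 and 11.79 in siEGFP cells, a change of -0.92 (SE 0.08, limma adjusted p = 0.000538). On 224704_at, it was 10.12, 9.94 and 9.98 in siPCARNEQ cells, against 10.70, 10.59 and 10.52 in siEGFP cells, a change of -0.59 (SE 0.09, limma adjusted p = 0.00373). All siPCARNEQ arrays were below all siEGFP arrays on both. The falls were 0.65 on 234734_s_at (limma adjusted p = 0.016, and 0.0513 without siPCARNEQ array 3) and 0.81 on 1553346_a_at (limma adjusted p = 0.0142, and 0.0581 or 0.0602 without siEGFP array 1 or 2). The other TNRC6A probe sets overlapped, with changes of 0.13 on 233836_at (limma adjusted p = 0.657) and 0.07 on 243834_at (limma adjusted p = 0.831). They differed from the brightest by 1.05 and 0.99 in their change (exact permutation p = 0.1 each).

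TNRC6B lies on chromosome 22, and all 7 of its probe sets were lower on every siPCARNEQ array than on any siEGFP array. Of these, 6 fell. On 230779_at, log2 intensity was 8.41, 8.25 and 8.11 in siPCARNEQ cells, against 9.20, 9.16 and 9.08 in siEGFP cells, a change of -0.89 (SE 0.10, limma adjusted p = 0.00117). On 240044_x_at, it was 7.89, 7.91 and 7.62 in siPCARNEQ cells, against 8.82, 8.66 and 8.86 in siEGFP cells, a change of -0.97 (SE 0.11, limma adjusted p = 0.00129). On 228998_at, it was 7.88, 7.80 and 7.84 in siPCARNEQ cells, against 8.56, 8.39 and 8.38 in siEGFP cells, a change of -0.60 (SE 0.08, limma adjusted p = 0.00273). None of these 3 lost its call when 1 array was left out.

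The brightest TNRC6B probe set, 229036_at, was the exception. Its log2 intensity was 9.65, 9.24 and 9.28 in siPCARNEQ cells, against 10.15, 9.76 and 9.67 in siEGFP cells, a change of -0.47 (SE 0.16, limma adjusted p = 0.0949 over probe sets and 0.0661 over genes). Array 1 was the highest in each group, by about as much in both. With the replicate number as a block the adjusted p was 0.00891 over probe sets and 0.00314 over genes. After averaging arrays 2 and 3 it was 0.0514 over probe sets and 0.0116 over genes with the block. Without siPCARNEQ array 1 the change was -0.60 (limma adjusted p = 0.0225). The falls were 0.66 on 1558142_at (limma adjusted p = 0.0368), 0.74 on 238468_at (0.032) and 0.65 on 213254_at (0.0229). Each of these 3 calls was lost without siPCARNEQ array 2, siEGFP array 1 or siEGFP array 2, the first 2 also without siPCARNEQ array 3, and 1558142_at and 213254_at also without siEGFP array 3 (limma adjusted p = 0.0526 to 0.12).

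TNRC6C, on chromosome 17, had 0 of 7 probe sets that passed, with changes of -0.26 to 0.11 (limma adjusted p = 0.165 to 0.94). On the brightest, 222820_at, log2 intensity was 9.20, 9.21 and 9.29 in siPCARNEQ cells, against 9.27, 9.01 and 9.08 in siEGFP cells, with overlap. On 1561041_at and 228591_at all siPCARNEQ arrays were lower, by means of 0.26 and 0.16 (log2 changes -0.26 and -0.16), near or below the array median. TNRC6A moved apart from TNRC6C by -1.03 and TNRC6B by -0.58, without overlap (exact permutation p = 0.1 and adjusted 0.171 each). Between TNRC6A and TNRC6B the shift was -0.45 with overlap (exact permutation p = 0.2).

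**Figure D3:**
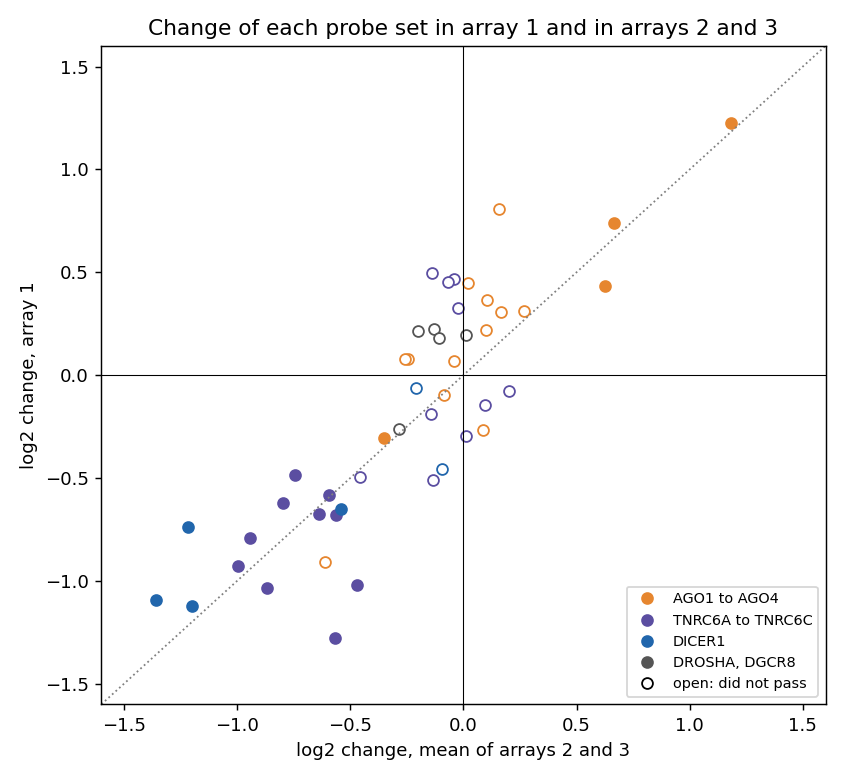
Log2 change of each of the 47 probe sets between the arrays numbered 1 (y axis) and between the means of those numbered 2 and 3 (x axis), siPCARNEQ minus siEGFP. The 18 probe sets that rose or fell have the same sign on both axes, as do 33 of the 47 in all. The 18 were called from these same arrays, so their agreement is no separate check.

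With 1 probe set per gene, 9 of the 10 genes could be measured, DGCR8 being the one without a single-gene probe set. AGO4 rose, DICER1, TNRC6A and DROSHA fell, and 5 did not pass. As the mean over all probe sets of the gene, the change was 0.60 for AGO4, -0.46 for TNRC6A and -0.71 for TNRC6B (limma adjusted p = 0.00127, 0.00367 and 0.00167). For DICER1 that mean was -0.74, against -1.06 on its brightest probe set, the smallest fall among the alternatives run. The calls with 1 probe set per gene are 11.1% up and 33.3% down, against 15.2% and 12.3% of all 19775 genes. AGO4 had the largest change of the 4, and the genes whose log2 intensity followed its own most closely over the 6 arrays were RETSAT (Pearson r = 0.999), FER1L4 (0.999) and AKAP9 (0.999). With arrays in 2 separated groups such values describe mainly the step between groups. RETSAT, a retinol saturase, had 11.38, 11.38 and 11.35 in siPCARNEQ cells, against 10.60, 10.57 and 10.56 in siEGFP cells.

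The other genes of the pathway were grouped in 8 lists by their step, and of 138 listed genes 125 were measured. Of these, 23 rose, 30 fell and 72 did not pass, with a median log2 change of -0.05, against -0.01 over all genes. That is 18.4% up and 24.0% down, against 15.2% and 12.3% of all genes, the shares beside which the counts of each list stand. The PIWI clade, which serves small RNAs of the germ line, had 3 measured genes, all below the array median and none passing.

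Among nuclear processing partners and export genes, 2 rose, 3 fell and 9 did not pass (median -0.09). With the replicate block 5 fell. RAN, the GTPase that drives export, had a log2 intensity of 12.06, 12.82 and 12.81 in siPCARNEQ cells, against 13.96, 14.07 and 14.10 in siEGFP cells, and fell by 1.48 (SE 0.20, limma adjusted p = 0.0016 over genes, as for all genes of the lists). The siPCARNEQ arrays were all lower, array 1 the most. TARDBP, an RNA-binding protein that associates with DROSHA, fell by 0.38 (limma adjusted p = 0.00389), or -0.14 as the mean over its probe sets (limma adjusted p = 0.117). ADARB1, an enzyme that edits adenosine in double-stranded RNA, rose by 0.97 on an _s_at probe set (limma adjusted p = 0.000191), while its brightest one without such a suffix changed by -0.031 (limma adjusted p = 0.846) and the mean over its probe sets by 0.22 (limma adjusted p = 0.0487). DDX17, a helicase of the DROSHA complex, rose by 0.34 (limma adjusted p = 0.0228; 0.0864 and 0.0912 without siEGFP array 2 or 3), and changed by 0.22 as the mean over its probe sets (limma adjusted p = 0.262).

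Among Dicer partners and Argonaute loading genes, 1 rose, 6 fell and 7 did not pass, and the median of -0.24 was the lowest of the 8 lists. HSPA4, a chaperone of the HSP70 group, fell by 0.77 (limma adjusted p = 0.00102), with 11.52, 11.77 and 11.72 in siPCARNEQ cells and 12.33, 12.51 and 12.48 in siEGFP cells. On its brightest probe set without such a suffix it rose, by 0.46 (limma adjusted p = 0.0182), and the mean over its probe sets was -0.47 (limma adjusted p = 0.0267). PTGES3, the HSP90 cochaperone p23, fell by 0.58 (limma adjusted p = 0.00113). TSNAX, which with translin removes the passenger strand of a siRNA, rose by 0.40 (limma adjusted p = 0.0239; 0.0957 and 0.0865 without siEGFP array 2 or 3).

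Among Argonaute and RISC (RNA-induced silencing complex) associated genes, 3 rose, 6 fell and 13 did not pass (median -0.12). With the replicate block 5 rose. GEMIN5 had 9.43, 9.40 and 9.41 in siPCARNEQ cells, against 10.13, 10.15 and 10.14 in siEGFP cells, and fell by 0.73 (limma adjusted p = 0.000247). GEMIN4 fell by 0.78 (limma adjusted p = 0.00209). Both belong to the SMN complex, which assembles small nuclear ribonucleoproteins. ZSWIM8, the ubiquitin ligase adaptor of target-directed microRNA decay, rose by 0.82 (limma adjusted p = 0.00126), but by 0.005 on its brightest probe set without such a suffix (limma adjusted p = 0.982) and by 0.41 as the mean over its probe sets (limma adjusted p = 0.0174). FXR2, an RNA-binding relative of the fragile X protein FMR1, rose by 0.25 (limma adjusted p = 0.0239), a call lost without any 1 array other than siPCARNEQ array 1 (0.0559 to 0.096).

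Downstream of TNRC6, the deadenylation list had 5 genes that rose, 2 that fell and 10 that did not pass (median 0.08). TOB2, an adaptor that brings the deadenylase complex CCR4-NOT to messenger RNA, had 11.71, 11.38 and 11.03 in siPCARNEQ cells, against 10.03, 10.14 and 10.13 in siEGFP cells, and rose by 1.27 (SE 0.16, limma adjusted p = 0.00121), or by 0.82 as the mean over its probe sets. Its relative TOB1 rose by 0.64 (limma adjusted p = 0.00113). CNOT10, a subunit of the complex, fell by 0.51 (limma adjusted p = 0.00784). CNOT6L, one of its deadenylases, fell by 0.30 (limma adjusted p = 0.0279), a call lost without siPCARNEQ array 3 or any 1 siEGFP array (0.0562 to 0.0966). On its brightest probe set without a suffix it changed by -0.13 (limma adjusted p = 0.63), and as the mean over its probe sets by -0.27 (limma adjusted p = 0.105).

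In decapping and decay, 1 gene rose, 4 fell and 8 did not pass (median -0.16). DCP2, the decapping enzyme, had 11.42, 11.26 and 11.22 in siPCARNEQ cells, against 12.03, 11.94 and 11.96 in siEGFP cells, and fell by 0.68 (limma adjusted p = 0.000846). Its activator DCP1A had 11.18, 11.24 and 11.31 in siPCARNEQ cells, against 10.65, 10.56 and 10.56 in siEGFP cells, and rose by 0.66 (limma adjusted p = 0.000618). These partners thus lay on opposite sides. DCPS, the scavenger enzyme that clears cap remnants, fell by 0.48 (limma adjusted p = 0.00255).

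In microRNA tailing and turnover, 1 gene rose, 3 fell and 5 did not pass (median -0.10). PNPT1, a mitochondrial exoribonuclease, fell by 0.85 (limma adjusted p = 0.000922). ERI1, an exoribonuclease that trims histone messenger RNA and small RNAs, fell by 0.75 (limma adjusted p = 0.000935). TUT7, a terminal uridylyltransferase that tails microRNA precursors, rose by 0.51 (limma adjusted p = 0.0153; 0.0514 and 0.05 without siEGFP array 1 or 2), or by 0.33 in arrays 2 and 3 alone.

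**Figure D4:**
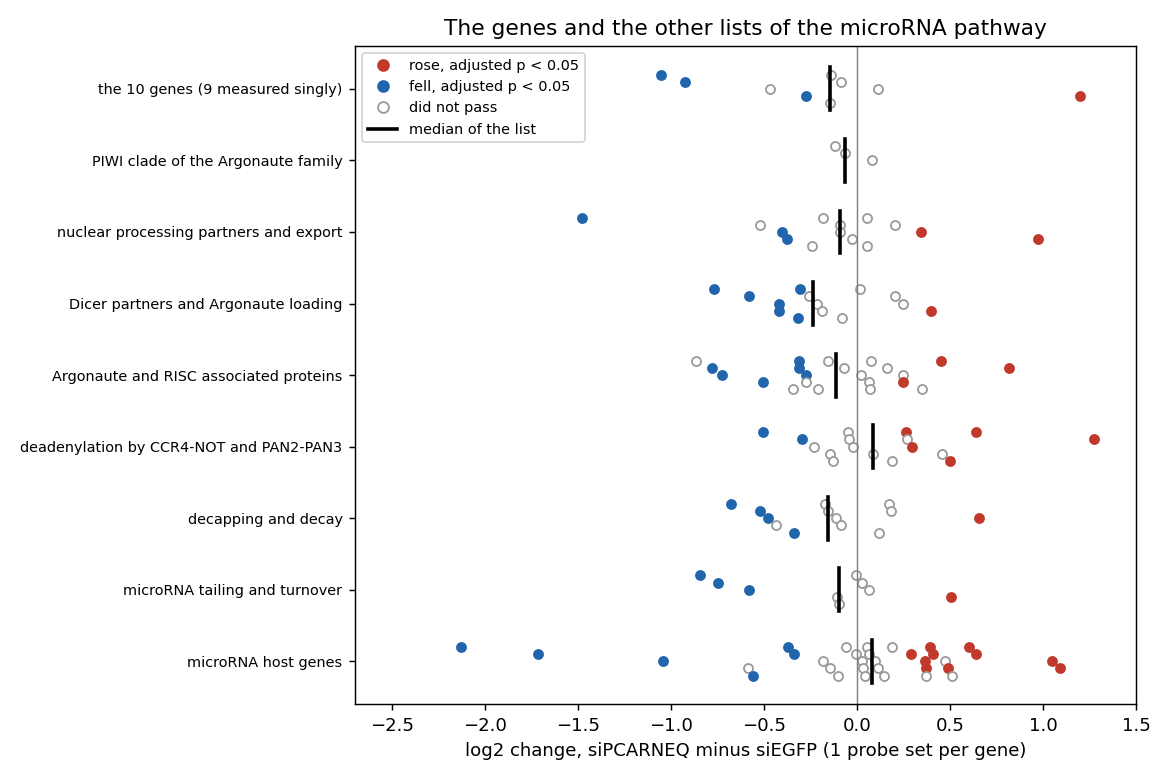
Log2 change, siPCARNEQ minus siEGFP, of 1 probe set per gene for the 9 measured genes of the set and for the 8 lists of other pathway genes, with a vertical bar at each list's median. Medians lie between -0.24 and 0.08, and single genes between -2.13 (SKA2) and 1.27 (TOB2).

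The arrays did not read mature microRNAs, but 34 genes that host them in their transcripts were measured: 10 rose, 6 fell and 18 did not pass (median 0.08). SKA2, a spindle and kinetochore protein, had 9.56, 9.59 and 9.62 in siPCARNEQ cells, against 11.84, 11.68 and 11.65 in siEGFP cells, and fell by 2.13 (SE 0.08, limma adjusted p = 2.51e-05), or by 1.31 as the mean over its probe sets. PANK3, a pantothenate kinase of coenzyme A synthesis, had 9.90, 10.24 and 10.25 in siPCARNEQ cells, against 11.92, 11.83 and 11.79 in siEGFP cells, and fell by 1.72 (SE 0.11, limma adjusted p = 8.99e-05). MIR99AHG, a non-coding host gene, had 11.02, 10.46 and 10.35 in siPCARNEQ cells, against 9.39, 9.59 and 9.58 in siEGFP cells, and rose by 1.09 (SE 0.17, limma adjusted p = 0.00326), or by 0.70 as the mean over its probe sets. ZRANB2, a splicing protein with zinc fingers, rose by 0.39 (limma adjusted p = 0.00362). A host transcript's level is not a level of the microRNA, which was not measured.

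One arm of each microRNA hairpin that RefSeq places in these 4 hosts on GRCh38.p14 is shown 5′ to 3′ with the seed in capitals, because DROSHA and DICER1 act on hairpins of this kind. The first pair lies in SKA2, the third in PANK3, the next set in MIR99AHG and the last in ZRANB2. For ZRANB2 only 1 mature arm was listed, the one shown. Which arm of a hairpin these cells use as a guide was not measured.
hsa-miR-454-3p: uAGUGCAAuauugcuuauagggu
hsa-miR-301a-3p: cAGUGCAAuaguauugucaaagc
hsa-miR-103a-3p: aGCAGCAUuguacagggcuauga
hsa-miR-99a-5p: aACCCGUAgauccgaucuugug
hsa-let-7c-5p: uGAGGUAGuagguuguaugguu
hsa-miR-125b-5p: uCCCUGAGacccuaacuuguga
hsa-miR-186-3p: gCCCAAAGgugaauuuuuuggg
The SKA2 pair shares the seed AGUGCAA, and none of the others shown share one.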

How the data were processed

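Total RNA of 6 LNCaP samples, 3 per group, was labelled with biotin and hybridised to single-colour Affymetrix arrays, per the labels. The authors deposited probe-set intensity on a linear scale, and the submitters' processing notes name RMA (robust multi-array average), without a version. The arrays share 1 median, so a difference in total RNA would not be visible. Of 54675 probe sets, 62 controls were left out. Log2 was taken with no pseudocount. Limma 3.58.1 (lmFit and eBayes, R 4.3.3) compared the groups, 2-sided and with no covariates. Adjustment was by Benjamini-Hochberg, over 54613 probe sets in the first fit and 19775 genes in the second. In the second, a gene was its brightest single-gene probe set by the mean of all arrays. The fit was checked on simulated data. Differences between probe sets within an array were tested by 2-sided exact permutation (SciPy 1.17.1, Python 3.11.15). Figures were made with matplotlib 3.10.9.

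All members are named. From each list of other genes, up to 2 that rose and 2 that fell with the smallest p are named, as are the 3 genes with the highest Pearson correlation to the called member with the largest change. The members and lists were chosen with earlier results of these data known. Gene names come from the platform annotation, which can be old. Probe positions were not used here, and the sources used here give no genome build for the array. Alternatives were the replicate block, other handling of array 1, leaving out each array, array weights, a pseudocount of 16, a further quantile normalization, other probe-set choices and a floor at the median.

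Arrays with the same replicate number deviated together from their group means (r = 0.47, 0.30 and 0.34 over probe sets for numbers 1, 2 and 3). Across numbers, r was 0.37 for siPCARNEQ array 2 with siEGFP array 3, and 0.24 for siPCARNEQ array 3 with siEGFP array 2. Array 1 of either group had r of -0.31 to -0.44 with arrays 2 and 3 of the other. The r of 0.47 thus sets array 1 apart, but the values do not show how arrays 2 and 3 pair. The replicate block takes the number as a pair of arrays, which is an assumption, since the labels state no shared batch.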

Additional observations from a re-analysis of the deposited data

How the results depend on the processing

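The number of the 47 probe sets that rose and fell was 3 and 15. Leaving out 1 array in turn gave 1 to 3 that rose, the lowest without siEGFP array 2, and 10 to 18 that fell. Averaging arrays 2 and 3 of each group into 1 value gave 1 and 6, with fewer samples in the fit, and without probe sets of the _s_at, _x_at and _a_at kinds 9 fell, with fewer probe sets tested. Over genes, 1 rose and 3 fell. Arrays 2 and 3 alone gave 2 and 6, array weights also 2 and 6, and leaving out 1 array gave 1 that rose throughout and 2 to 6 that fell, the highest without siPCARNEQ array 1. Without the _s_at, _x_at and _a_at kinds 2 genes rose. The AGO4, TNRC6A and DICER1 calls over genes held in all 17 alternatives run, the DROSHA call was lost in 6 (adjusted p up to 0.208), and TNRC6B passed in 6. Over the other lists, 23 rose and 30 fell, against 6 and 12 with arrays 2 and 3 averaged, and leaving out 1 array gave 13 to 23 that rose and 20 to 35 that fell, the lowest of each without siEGFP array 2 or 3. Array weights gave 35 that rose. Without those kinds 3 gene values changed sign: AGO1 had 0.69 (adjusted p = 0.00545), ADARB1 had -0.031 and HSPA4 had 0.46. The cause of these changes was not tested. With the replicate block 4 probe sets rose and 18 fell, and no call of a probe set of the 10 genes other than those given beside the results changed. Probe sets below the array median limit what can be resolved.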
